A study of Mus musculus with 12 samples.

Results

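The heat shock proteins and chaperones described here are the 82 protein-coding genes of the count table whose symbols belong to the Hsp (Hspa, Hspb, Hspd, Hspe, Hsph and Hsp90), Dnaj (A, B and C), Cct or Bag (1 to 6) series, together with the heat shock factors Hsf1 and Hsf2, out of 61210 genes in the table. Of these, 78 had enough counts to be tested. Dnajb8, Dnajc5b and Dnajc5g were at 0 counts in the 12 libraries, which allows up to 3 counts per library, and Dnajc6 did not exceed 8 counts in a library. Hspa1a and Hspa1b, the heat-inducible HSP70 pair, were not analysed here, and Hspa12a, listed as noncoding, is outside the rule.

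Chaperones bind unfolded proteins and help them fold, assemble or be degraded. HSP70 proteins work in cycles of ATP hydrolysis that J proteins (the Dnaj genes) start and nucleotide exchange factors (the HSP110 and BAG proteins) end, HSP90 finishes the folding of clients such as kinases and receptors, and the ring-shaped chaperonins HSP60 with HSP10 in mitochondria and TRiC (the Cct genes) in the cytosol enclose proteins as they fold. Heat shock factor 1 switches on the cytosolic genes in stressed cells, the unfolded protein response does so in the endoplasmic reticulum (ER), and brown adipocytes, which make heat in densely packed mitochondria, have to import and fold many mitochondrial proteins.

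Total RNA was sequenced from iBAT, a brown adipose tissue, of wild-type C57BL/6N mice aged 20 weeks. The groups of 3 libraries were NCD RT (control chow, room temperature, 22 °C in the study's methods), NCD cold (chow, 4 °C for 24 h), HFD RT (high-fat diet for 12 weeks from 8 weeks of age, room temperature) and HFD cold (the same diet, then 4 °C for 24 h). All mice had eaten chow up to 8 weeks of age. The labels give neither the sex of the mice nor whether each library came from a single animal, so the tests measure the spread between libraries, and the methods call the tissue interscapular while the design text calls it inguinal.

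Libraries held 15136861 to 46740702 counts, and the 82 genes took 0.811 to 1.5% of them. In the labels the first and second replicates belong to batch 1 and the third replicates to batch 2, which was sequenced to 34067515 counts or more. The summed level of 12 thermogenic genes was 7964 to 26938 CPM (counts-per-million units after TMM scaling of library sizes). No other tissue was compared and no threshold was set, so this range describes the libraries and is no check of brown fat identity. In each group 1 library (NCD RT 2, NCD cold 2, HFD RT 3 and HFD cold 3) was rich in skeletal muscle transcripts, with 7380 to 23917 summed CPM over 18 muscle genes against 913 to 4601 in the other 8. The counts of calls are therefore also given without these 4 libraries, and in bulk tissue fewer cells of a type and less RNA per cell cannot be told apart.

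Cold raised 9 chaperone genes on NCD and 8 on HFD and lowered none on either diet. A gene was called where the adjusted p was under 0.05 and the log2 fold change over 0.5 in size. Every adjusted p comes from the quasi-likelihood test of edgeR, adjusted by Benjamini-Hochberg over 16737 genes, and log2 fold changes of named genes are given ± their standard error where a ± follows. On NCD the 9 genes were 11.5% of the 78 tested, where 3.72% of all genes were called higher and 2.55% lower. On HFD the 8 genes were 10.3%, where 5.39% of all genes were called higher and 4.19% lower. At an unadjusted p under 0.05, 22 members were higher and 1 lower on NCD and 19 higher and 3 lower on HFD. In either direction this was 23 of 78 members against 3670 of 16737 genes on NCD. On HFD it was 22 of 78 against 4595 of 16737, shares that lay close together. DESeq2 likewise called none lower. The median log2 fold change of the 78 members was 0.19 on NCD, with 60 above 0, and 0.14 on HFD, with 55 above 0, against -0.01 and -0.04 over all genes. Summed over the 82 members, the level was 9289 ± 291 CPM in NCD RT, 12552 ± 1071 in NCD cold, 10423 ± 1464 in HFD RT and 12444 ± 741 in HFD cold (SD, n = 3). Hspa4, Hspbp1, Dnaja3 and Dnajc11 were called on both diets.

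Libraries also separated without regard to the test. All 3 cold libraries lay above the 3 RT libraries for 26 members on NCD (33.3%, against 15.2% of all genes) and 23 on HFD (29.5%, against 15.9%), and below them for 1 (1.28%, against 12.6%) and 5 (6.41%, against 14.4%). By family, the J proteins gave 4 calls on each diet, of 4 DNAJA, 10 DNAJB and 24 DNAJC genes tested. The 3 HSP110 genes gave 1 call on each diet, the 3 HSP90 genes 1 on NCD and 0 on HFD, the 8 HSP70 genes 0 and 1, and the 7 BAG and related exchange factors 1 and 2. Where these counts were 0, DESeq2 also called 0, and at an unadjusted p under 0.05 the HSP90 genes gave 1 on HFD and the HSP70 genes 3 on NCD. The 24 DNAJC genes, most of which have specialised J protein roles, had median log2 fold changes of 0.07 on NCD and 0.18 on HFD, with single genes from -0.77 to 0.69 and from -0.66 to 0.75.

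The counts of calls depended on the libraries. Without the 4 muscle-rich libraries 1 member was called on NCD (1.28%, against 1.69% of all genes called in either direction) and 4 on HFD (5.13%, against 4.39%). With batch 1 alone 3 were called on NCD (3.85%, against 2.12%) and 2 on HFD (2.56%, against 2.51%), where the same shares with all libraries were 11.5% against 6.27% on NCD and 10.3% against 9.58% on HFD. Apart from batch 1 on NCD, the members' shares in these reduced sets were near or under those of all genes. A further fit kept all 12 libraries and added a skeletal muscle score, from the 18 muscle genes, as a term. It called 8 members on NCD (10.3%, against 6.75% of all genes) and 9 on HFD (11.5%, against 9.96%). Of these, 8 and 7 were among the calls made without the term. Of the calls made with all libraries, those of Hspa4 on NCD and of Hspa4 and Bag2 on HFD stayed without the muscle-rich libraries. In batch 1 alone, those of Hspa4, Dnaja3 and Dnajb9 on NCD and of Hspa4 on HFD stayed. On NCD the count was 4 without NCD RT 1 and 5 without NCD RT 2, NCD RT 3 or NCD cold 3, and on HFD it was 5 without HFD RT 2 or HFD cold 3. Each of the called members had the same sign in both batches. Log2 ratios were 0.43 to 1.17 in batch 1 and 0.39 to 1.2 in batch 2 on NCD, and 0.40 to 1.02 and 0.58 to 0.89 on HFD. Since the members were called from these same libraries, the agreement in sign follows largely from that choice and is no separate support. Batch 2 has 1 library per group. When replicate numbers entered as a block inside each diet the 9 calls on NCD stayed, whereas on HFD 7 of the 8 stayed, Dnajb13 was lost (adjusted p = 0.0984) and Dnajb5 and Hspb2 were called lower.

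Averaged over both diets, cold raised 12 members (15.4%, against 6.09% of all genes) and lowered 1, Dnajc12 (1.28%, against 6.6% of all genes). The 12 were the 13 genes called higher on at least 1 diet, without Hspd1 and Dnajb11 and with Bag3, the partner of HSPB8 in selective autophagy. For 15 of the 78 members all 6 cold libraries lay above all 6 RT libraries, and for none did they all lie below (19.2 and 0%, against 5.72 and 2.41% of all genes). These comprised 3 mitochondrial genes (Hspa9, Dnaja3 and Dnajc11), 6 ER genes (Hspa5, Dnajb9, Dnajb11, Dnajc3, Dnajc14 and Dnajc25) and 6 cytosolic genes (Hspa4, Hspbp1, Bag2, Dnaja2, Cct2 and Cct3). Cct2, Cct3, Dnaja2 and Dnajc14 were named after their values were seen.

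**Figure D1:**
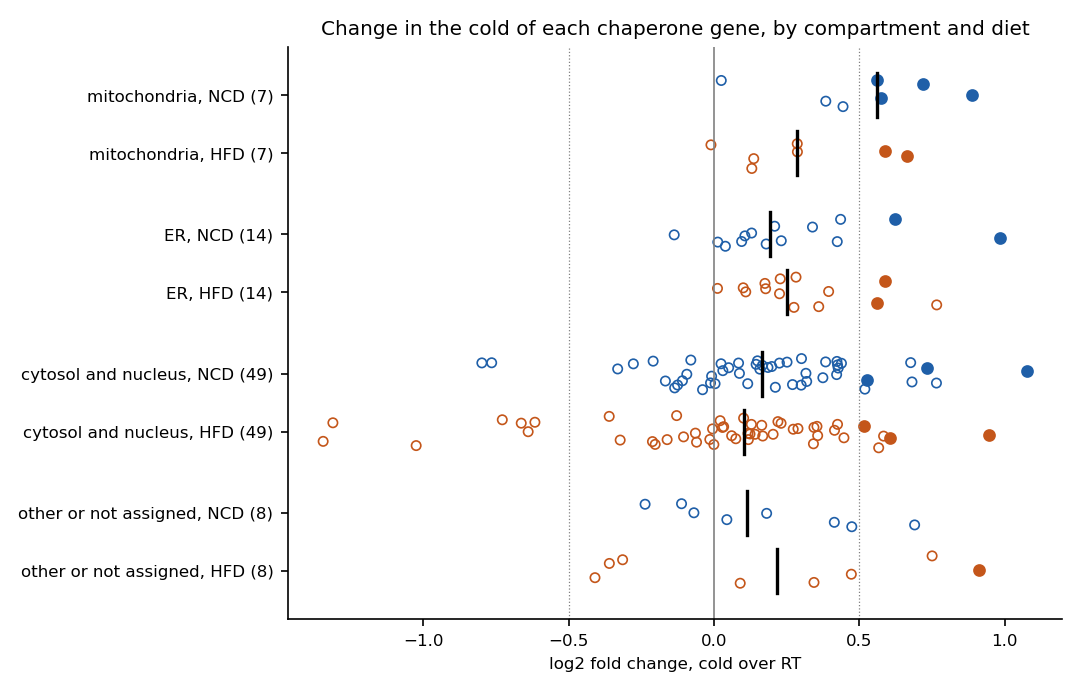
Log2 fold change of each tested chaperone gene in the cold (x axis, cold over RT) by compartment and diet, with the number of genes in brackets; filled points were called, black bars are medians and dotted lines mark the fold change threshold of 0.5. The 7 mitochondrial genes had medians of 0.56 on NCD and 0.29 on HFD, and the 49 cytosolic and nuclear genes of 0.17 and 0.10.

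Nucleotide exchange factors, which release ADP and client from HSP70, included 2 of the 4 genes called on both diets. Hspa4, an HSP110 protein (chromosome 11, 53259814 to 53300457, minus strand, GRCm38), was at 197, 199.6 and 211 CPM in the 3 NCD RT libraries and at 341, 314 and 355 CPM in NCD cold. It was at 219.7, 232 and 237 CPM in HFD RT and at 347, 347 and 355 CPM in HFD cold. All 6 cold libraries exceeded all 6 RT libraries. Cold changed it by 0.73 ± 0.09 on the log2 scale on NCD (adjusted p = 0.000963) and 0.61 ± 0.09 on HFD (adjusted p = 0.00188). Both calls stayed under each of the 12 other settings and without each library in turn, including the fit without the muscle-rich libraries.

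Hspbp1, a second exchange factor of cytosolic HSP70 (chromosome 7, 4660521 to 4685068, minus strand), was at 17.5, 18.5 and 17.3 CPM in NCD RT and 24.7, 27.7 and 24.4 CPM in NCD cold. On HFD it went from 15.98, 16.2 and 14.97 CPM to 23.3, 20.1 and 24.03 CPM. The cold and RT libraries did not overlap on either diet, and the log2 fold changes were 0.53 ± 0.10 (adjusted p = 0.0125) and 0.52 ± 0.10 (adjusted p = 0.00969), close to the threshold of 0.5. The call was lost on NCD without NCD RT 1, NCD RT 3, NCD cold 2, HFD cold 1 or HFD cold 3, and on HFD without HFD RT 3 or HFD cold 3. The other HSP110 genes were more variable: the log2 fold change of Hspa4l, named after its values were seen, was 0.68 ± 0.28 on NCD and 0.45 ± 0.28 on HFD, and that of Hsph1 was 0.19 ± 0.42 and -0.64 ± 0.42. Neither passed the test.

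Of the BAG genes, Bag2, which inhibits the ubiquitin ligase CHIP, rose in the cold on HFD. It was at 8.37, 6.90 and 11.01 CPM in HFD RT and 19.6, 12.3 and 18.9 CPM in HFD cold, with a log2 fold change of 0.95 ± 0.20 (adjusted p = 0.0132) that did not pass without HFD RT 2. On NCD it was at 10.2, 11.7 and 10.04 CPM and 12.3, 14.2 and 13.3 CPM, a log2 fold change of 0.32 ± 0.20 (adjusted p = 0.41). The difference between the diets was not called (interaction 0.63 ± 0.29, unadjusted p = 0.0497, adjusted p = 0.766). Bag3 was called only in the average over both diets (0.62 ± 0.19, adjusted p = 0.0403), and this call stayed only without NCD cold 3, HFD RT 3 or HFD cold 3, of the 12 libraries left out in turn. Bag1 did not pass the test in the cold (0.03 ± 0.11 and -0.06 ± 0.11, adjusted p = 0.923 and 0.767).

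Of the 7 mitochondrial chaperones, 4 rose on NCD (Dnaja3, Dnajc11, Hspd1 and Hspe1) and 2 on HFD (Dnaja3 and Dnajc11). These were 57.1 and 28.6%, against 3.72 and 5.39% of all genes called higher, and 6 and 3 had an unadjusted p under 0.05. The compartments were assigned gene by gene for this report, and another assignment could change these shares and medians. Their summed level was 2780 ± 151 CPM in NCD RT and 3949.7 ± 588 in NCD cold, and 3047 ± 199 and 3739.99 ± 87.2 on HFD. The 12 thermogenic genes moved with them, from 8551 ± 938 summed CPM in NCD RT to 25023 ± 1723 in NCD cold and from 12148 ± 1239.5 to 21277 ± 2219 on HFD, and their part in these values was not tested.

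Dnaja3, the J protein TID1 of the matrix (chromosome 16, 4639989 to 4707695, plus strand), was at 267, 267 and 279 CPM in NCD RT and 415, 506 and 584 CPM in NCD cold. On HFD it was at 289, 323 and 263 CPM at RT and 431, 492 and 462 CPM in the cold. The lowest cold library lay well above the highest RT library on both diets. The log2 fold changes were 0.89 ± 0.13 (adjusted p = 0.00321) and 0.66 ± 0.13 (adjusted p = 0.00915). Both calls stayed without each of the 12 libraries in turn, but neither stayed without the 4 muscle-rich libraries together, and that on HFD was also lost in batch 1 alone. Its annotated exons share 160 bases with Vasn on the same strand and 153 with Coro7 on the other, whose log2 fold changes in the cold on NCD were -0.80 and -0.07.

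Dnajc11, associated with the MICOS complex that shapes the cristae (chromosome 4, 151933691 to 151982137, plus strand), was at 131, 126 and 137 CPM in NCD RT and 173, 192 and 216 CPM in NCD cold. The HFD libraries were at 116, 119.8 and 113 CPM at RT and 170.5, 167 and 188 CPM in the cold. The log2 fold changes of 0.56 ± 0.10 and 0.59 ± 0.10 (adjusted p = 0.00776 and 0.00441) differed by 0.03 ± 0.14 between the diets. The call on NCD was lost without NCD cold 3, and the calls on both diets were lost in batch 1 alone and without the 4 muscle-rich libraries together.

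HSP60 (Hspd1) and its lid HSP10 (Hspe1), the chaperonin of the matrix, rose on NCD. Hspd1 was at 603, 561 and 651 CPM in NCD RT and 825, 741 and 1138 CPM in NCD cold, and Hspe1 at 122, 103 and 141 and 201, 170.5 and 231 CPM. On HFD, Hspd1 was at 609, 774 and 718 CPM at RT and 751, 794 and 765 CPM in the cold, and Hspe1 at 102, 149 and 125 and 157, 155 and 147 CPM. The groups were apart for both genes on NCD and overlapped for both on HFD. The log2 fold changes on NCD were 0.58 ± 0.16 for Hspd1 (adjusted p = 0.0484) and 0.72 ± 0.16 for Hspe1 (adjusted p = 0.0221), and on HFD 0.14 ± 0.16 and 0.29 ± 0.16 (adjusted p = 0.607 and 0.278). Whether cold acted differently on the diets was not shown, since the interactions were -0.44 ± 0.22 and -0.43 ± 0.23 (adjusted p = 0.793 and 0.806). Of the 12 libraries left out in turn, the Hspd1 call on NCD stayed only without NCD cold 2 or HFD RT 1, and that of Hspe1 was lost without NCD RT 1, NCD RT 2, NCD cold 1 or NCD cold 3. NCD cold 3 was the highest library for both genes.

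Hspd1 and Hspe1 lie head to head on chromosome 1. In RefSeq's annotation of GRCm38.p6, Hspe1 starts at 55088148 on the plus strand and Hspd1 at 55087932 on the minus strand, 216 bases apart, with another Hspd1 start at 55088243. The stretch between the first pair holds 2 overlapping heat shock elements, the sites that heat shock factors recognise, and is shown because it lies near the starts of both genes. It lies at chr1:55088054-55088081 inside an exon of an annotated Hspd1 transcript, and is written on the plus strand, with the elements in capitals.

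Hspe1 and Hspd1: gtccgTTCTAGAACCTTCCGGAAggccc

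The gene of the cytosolic J protein DNAJB6, at chr5:29735847-29735869 on the plus strand, held a single element, inside an annotated Dnajb6 exon, and is shown beside it.

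Dnajb6: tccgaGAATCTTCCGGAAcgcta

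The element was searched on both strands as GAANNTTCNNGAA, in windows from 250 bases before to 50 after each annotated start. Of the 82 members, 66 had a window, and 4 of these genes held the element (6.06%, against 0.662% of all genes with a window): Hspd1, Hspe1, Dnajb6 and Hsph1. The matches of Hspd1 and Hspe1 are the same stretch, shown above, which is counted for both genes here and in the shorter forms. The shorter forms GAANNTTC and TTCNNGAA, which the longer element contains, were in 13 (19.7%, against 9.04%) and 8 (12.1%, against 9.6%). A match describes the letters in the window and is not evidence of binding. On NCD the log2 fold changes in the cold were 0.58 and 0.72 for the chaperonin pair, 0.20 for Dnajb6 and 0.19 for Hsph1. On HFD they were 0.14 and 0.29 for the pair and -0.64 for Hsph1. For Dnajb6 on HFD the log2 ratios within batches were 0.08 and 0.19. None of these genes was called on HFD. The annotated Hspd1 and Hspe1 also share 112 bases of exon on opposite strands, and the strand used in counting is not given in the sources used here.

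The remaining mitochondrial members did not pass the test. Hspa9, or mortalin, the HSP70 of the matrix and the most abundant of the 7 per length, had log2 fold changes of 0.38 ± 0.12 on NCD and 0.29 ± 0.12 on HFD (adjusted p = 0.0725 and 0.141). Its 6 cold libraries, at 1707, 1749.9 and 2139.6 CPM on NCD and 2039.5, 1918 and 1855 CPM on HFD, lay above the 6 RT libraries at 1525, 1332 and 1429.6 and 1589, 1664 and 1511 CPM. Dnajc15 and Dnajc19, J proteins of the inner membrane import motor, had log2 fold changes of 0.44 and 0.03 on NCD, and are named to complete the compartment.

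**Figure D2:**
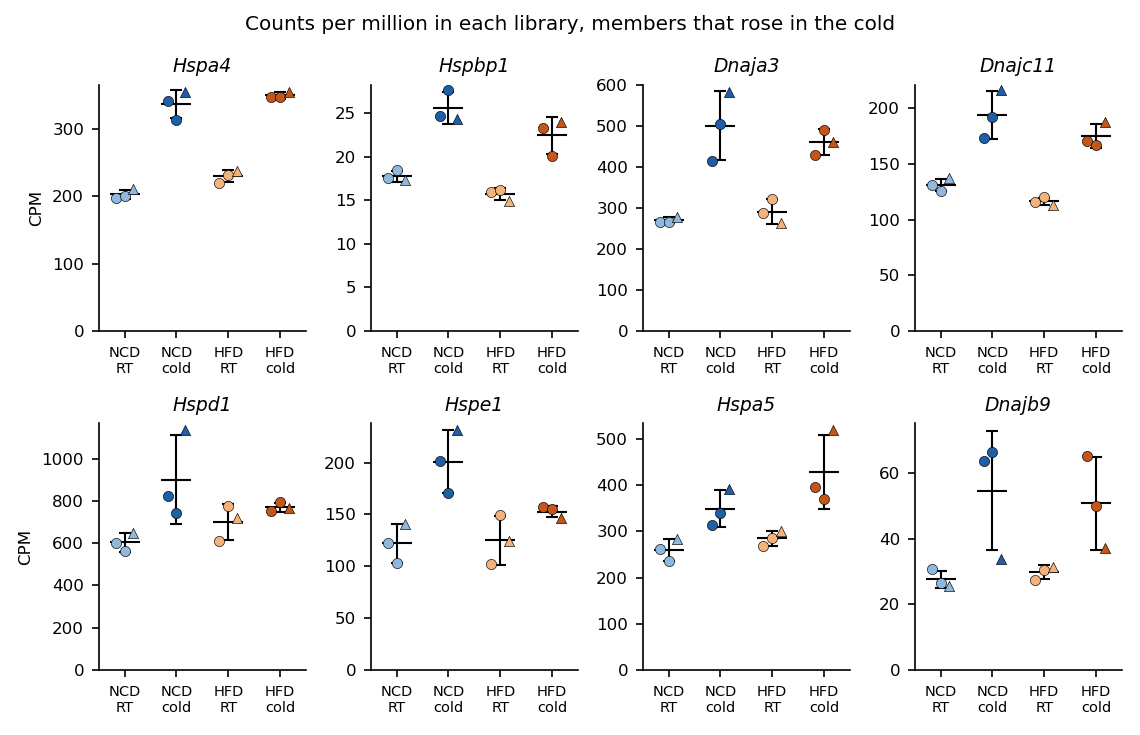
CPM (y axis, from 0) in each library of the 4 groups (x axis) for 8 chaperone genes called higher in the cold on at least 1 diet; circles are batch 1, triangles batch 2, and bars are the mean ± SD of 3 libraries. For Hspa4 the 6 cold libraries, at 314 CPM or more, lie above the 6 RT libraries, at 237 CPM or less.

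In the ER, 2 of 14 members rose on each diet (14.3%, against 3.72% of all genes called higher on NCD and 5.39% on HFD). On NCD these were Dnajb9 and Dnajc25, and on HFD Hspa5 and Dnajb11. All 14 had a positive log2 fold change on HFD and 13 on NCD, with medians of 0.25 and 0.19. The summed level of the 14 was 935 ± 40.8 CPM in NCD RT, 1172 ± 44.2 in NCD cold, 988 ± 40.2 in HFD RT and 1290 ± 110.0 in HFD cold.

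Hspa5, or BiP, the HSP70 of the ER lumen (chromosome 2, 34771970 to 34777547, plus strand), was at 262, 235 and 282 CPM in NCD RT and 314, 340.1 and 392 CPM in NCD cold. On HFD it was at 267, 286 and 300.1 CPM at RT and 395, 369.9 and 519 CPM in the cold, so that HFD cold 3 stood above the other libraries. The log2 fold change was 0.59 ± 0.14 on HFD (adjusted p = 0.0227) and 0.42 ± 0.14 on NCD (adjusted p = 0.0969). The interaction was 0.17 ± 0.20 (adjusted p = 0.921), and the call on HFD was lost without HFD RT 1, HFD RT 2 or HFD cold 3. Dnajb11, the BiP partner ERdj3, rose too, with 28.5, 31.5 and 28.9 CPM in HFD RT, 39.8, 39.5 and 51.9 CPM in HFD cold and a log2 fold change of 0.56 ± 0.12 (adjusted p = 0.0113), which did not pass without HFD cold 3.

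Dnajb9, the BiP regulator ERdj4, had the largest fold change of the ER members on NCD, with 30.7, 26.4 and 25.6 CPM at RT and 63.6, 66.3 and 33.7 CPM in the cold. On HFD the values were 27.4, 30.5 and 31.5 CPM and 65.3, 49.8 and 37.1 CPM. Within each cold group the library of batch 2 was the lowest. The log2 fold change was 0.98 ± 0.25 on NCD (adjusted p = 0.0369) and 0.77 ± 0.25 on HFD (adjusted p = 0.0696). The call on NCD was lost without 7 of the 12 libraries left out in turn and stayed without NCD cold 3, HFD RT 1, HFD RT 3, HFD cold 1 or HFD cold 3. Within batches, the log2 ratio was 1.17 in batch 1 and 0.39 in batch 2 on NCD, and 0.98 and 0.24 on HFD. Averaged over the diets Dnajb9 was called in each setting (0.88 ± 0.18, adjusted p = 0.00508).

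Dnajc25, a J protein of the ER membrane, was at 18.7, 20.8 and 20.1 CPM in NCD RT and 29.6, 29.6 and 32.4 CPM in NCD cold (log2 fold change 0.62 ± 0.11, adjusted p = 0.00855). Its call on NCD was lost in batch 1 alone and without the muscle-rich libraries. On HFD Dnajc25 passed the adjusted p but not the fold change (0.39 ± 0.11, adjusted p = 0.0433). Dnajc3, or P58IPK, did the same on NCD (0.44 ± 0.11, adjusted p = 0.039). Hsp90b1, or GRP94, the HSP90 of the ER, had log2 fold changes of 0.34 ± 0.16 and 0.36 ± 0.16 (adjusted p = 0.24 and 0.166) and did not pass.

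The ER stress element, the site read by ATF6 with NF-Y in the unfolded protein response, was searched as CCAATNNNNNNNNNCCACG on both strands in the same windows. It was found in 3 of the 66 members (4.55%, against 0.137% of all genes with a window): Hspa5, Hsp90b1 and Dnajc3. These are shown because this element is the textbook mark of the pathway, with the element in capitals, on the strand of each gene. The second match of Hsp90b1 is the reverse complement.

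Hspa5, chr2:34772020-34772048, plus strand: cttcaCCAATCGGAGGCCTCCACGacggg

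Hsp90b1, chr10:86705633-86705661, minus strand: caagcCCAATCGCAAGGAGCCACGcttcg

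Hsp90b1, chr10:86705528-86705556, minus strand: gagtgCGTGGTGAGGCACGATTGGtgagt

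Dnajc3, chr14:118937822-118937850, plus strand: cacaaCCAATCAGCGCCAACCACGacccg

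Of the 3 genes with this element, Hspa5 was called in the cold on HFD, and Dnajc3 and Hsp90b1 on neither diet.

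The cytosolic and nuclear members, 49 of the 78, gave 3 calls on each diet. On NCD these were Hspa4, Hspbp1 and Hsp90aa1, and on HFD Hspa4, Hspbp1 and Bag2, 6.12% of the compartment on each diet, against 3.72% of all genes called higher on NCD and 5.39% on HFD. Hsp90aa1, the stress-inducible HSP90 (chromosome 12, 110690605 to 110702728, minus strand), was at 389.7, 382 and 420.0 CPM in NCD RT and 897, 652 and 964 CPM in NCD cold. On HFD it was at 376, 876 and 619.7 CPM at RT and 1165, 801 and 839 CPM in the cold. The NCD groups were far apart, whereas on HFD 1 RT library lay inside the range of the cold ones and the other two below it. On NCD the log2 fold change was 1.08 ± 0.27 (adjusted p = 0.0343) and 0.58 ± 0.27 on HFD (adjusted p = 0.183), with an interaction of -0.49 ± 0.38 (adjusted p = 0.858). Without NCD RT 1, 2 or 3, or NCD cold 1 or 3, each left out in turn, the call on NCD was lost.

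Its constitutive counterpart Hsp90ab1 did not pass on either diet (0.52 ± 0.22 and 0.12 ± 0.22, adjusted p = 0.19 and 0.766). Neither did Hspa8, the constitutive HSC70 and the member with the highest level per length, with log2 fold changes of 0.43 ± 0.22 and 0.27 ± 0.22 (adjusted p = 0.307 and 0.461). Dnaja1 and Dnajb1, J proteins that stimulate cytosolic HSP70, had 0.25 ± 0.22 and 0.42 ± 0.28 on NCD and -0.10 ± 0.22 and -0.13 ± 0.28 on HFD, none of them called.

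Neither heat shock factor passed the test in the cold, by edgeR or DESeq2 (at an unadjusted p under 0.05, 0 on NCD and Hsf2 on HFD). Hsf1, the main stress regulator of these genes, was at 18.6, 20.6 and 20.2 CPM in NCD RT, 21.04, 22.95 and 21.8 CPM in NCD cold, 18.2, 18.9 and 18.7 CPM in HFD RT and 21.1, 18.3 and 17.4 CPM in HFD cold. Its log2 fold change in the cold was 0.15 ± 0.10 on NCD and 0.02 ± 0.10 on HFD (adjusted p = 0.447 and 0.917). Hsf2 had -0.01 ± 0.19 and 0.43 ± 0.19 (adjusted p = 0.989 and 0.178). Activation of heat shock factors is by protein trimerisation, which transcript levels do not measure.

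Hsph1, Hspb1, Hsp90aa1 and Hspa4l spread over more than 2-fold among the HFD RT libraries, whereas Dnaja1, Dnajb1, Bag3 and Hspb8 did not. Hsph1 was at 54.2, 191 and 181 CPM in HFD RT, and Hspb1, or HSP25, at 88.4, 278 and 201 CPM. For both, HFD RT 1 was lowest and HFD RT 2 highest, as it was for Hsp90aa1 and Hspa8. In the other groups Hsph1 was at 55.99, 47.7 and 107 CPM in NCD RT, 93.3, 76.6 and 70.8 CPM in NCD cold and 103, 101 and 69.7 CPM in HFD cold. HFD at RT gave log2 fold changes of 1.01 ± 0.42 for Hsph1, 0.99 ± 0.36 for Hspb1 and 0.65 ± 0.27 for Hsp90aa1, none of which passed (adjusted p = 0.233, 0.177 and 0.229). Among genes with a mean of 10 CPM or more, the highest library exceeded the lowest by over 2-fold in HFD RT for 10 of 67 members (14.9%, against 5.64% of 8595 genes). In NCD RT this held for 4 members, in NCD cold for 6 and in HFD cold for 3, with 3.57, 5.93 and 6.08% of all genes. Of the 10, HFD RT 2 was the highest library for 4 (Hsph1, Hspb1, Hsp90aa1 and Hspa4l) and the muscle-rich HFD RT 3 for 6 (Hspb6, Hspb7, Dnajb5, Dnaja4, Dnajb4 and Dnajc27), of which Dnaja4, Dnajb4 and Dnajc27 are also named after their values were seen. The part of the muscle content in this spread was not tested.

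**Figure D3:**
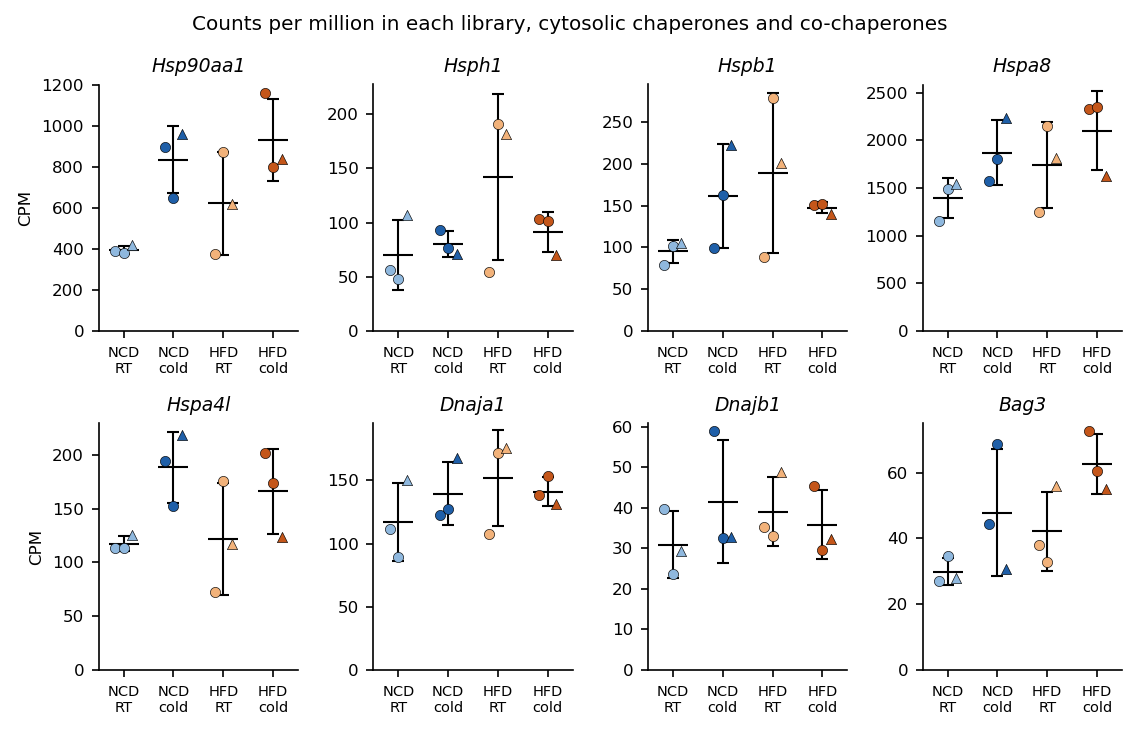
CPM (y axis, from 0) in each library of the 4 groups (x axis) for 8 cytosolic chaperone genes; circles are batch 1, triangles batch 2, and bars are the mean ± SD of 3 libraries. Hsph1, Hspb1 and Hsp90aa1 spread over more than 2-fold among the 3 HFD RT libraries.

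None of the 8 tested Cct genes, subunits of TRiC, was called on either diet by edgeR or DESeq2, with 2 higher and 0 lower at an unadjusted p under 0.05 on each diet. The median log2 fold change was 0.13 on both. Cct3 passed the adjusted p on both diets below the fold change threshold, with 0.44 ± 0.10 on NCD (adjusted p = 0.0274) and 0.36 ± 0.10 on HFD (adjusted p = 0.0481). Cct2 did so on HFD (0.34 ± 0.09, adjusted p = 0.0312). Summed over the subunits the level was 800.1 ± 53.7 CPM in NCD RT, 914 ± 73.9 in NCD cold, 762 ± 53.9 in HFD RT and 865 ± 48.7 in HFD cold. Tcp1, the subunit outside the symbol rule, and the prefoldin genes that pass substrates to the ring were called on neither diet (0 of 9, with 1 and 3 higher and 0 and 1 lower at an unadjusted p under 0.05, and 0 by DESeq2).

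Small heat shock proteins, which hold unfolded proteins without ATP, were not called on either diet by edgeR or DESeq2, and none of the 5 had an unadjusted p under 0.05. Hspb8, the partner of BAG3, had log2 fold changes of 0.27 ± 0.14 and 0.29 ± 0.14 (adjusted p = 0.282 and 0.196). Hspb1 had 0.77 ± 0.36 on NCD and -0.36 ± 0.36 on HFD, opposite in sign (interaction -1.13 ± 0.51, unadjusted p = 0.0473, adjusted p = 0.765).

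Hspb6 and Hspb7, small heat shock proteins of muscle, were highest in the muscle-rich libraries, as were Hspb2, Hspa1l and the J protein gene Dnajb5, all named after their values were seen. Hspb7 was at 13.6, 65.2 and 9.13 CPM in NCD RT, 4.64, 91.4 and 6.84 CPM in NCD cold, 7.28, 8.89 and 64.2 CPM in HFD RT and 5.13, 6.16 and 83.4 CPM in HFD cold. Hspb6 was at 28.8, 111 and 12.8, 15.4, 112 and 11.1, 22.2, 19.9 and 76.9 and 13.9, 16.2 and 47.4 CPM in the same order. In each group the highest library was the one richest in the 18 skeletal muscle transcripts. No cold fold change of the 5 genes passed without a block. With the replicate block within diet, in which the muscle-rich libraries are paired with each other, Dnajb5 (-0.90, adjusted p = 0.0138) and Hspb2 (-1.46, adjusted p = 0.0273) fell in the cold on HFD, where the muscle list was at 9814 ± 12214 summed CPM at RT and 3190.45 ± 3632 in the cold. Hspb2 shares 252 bases of exon with Cryab on the other strand. With a muscle score as a term and no block, 9 members were called higher in the cold on HFD and 0 lower. The part of the muscle content in the values of the 5 genes was otherwise not tested.

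**Figure D4:**
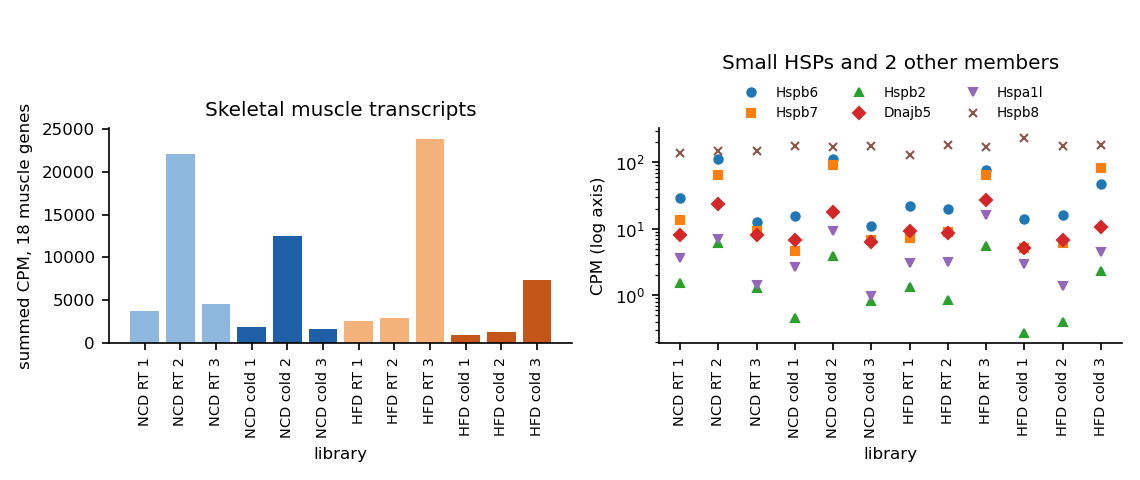
Summed CPM of 18 skeletal muscle genes in each library (left, y axis from 0) and CPM of 6 chaperone genes (right, log axis), with libraries on the x axis. Hspb6, Hspb7, Hspb2, Dnajb5 and Hspa1l are highest in NCD RT 2, NCD cold 2, HFD RT 3 and HFD cold 3, the muscle-rich libraries, whereas Hspb8 varies little.

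HFD changed few members. At RT, 1 member was called higher (1.28%, against 0.992% of all genes) and none lower (1.09% of all genes). In the cold none was called higher (2.06% of all genes) and 1 lower (1.28%, against 2.69%). At an unadjusted p under 0.05, 5 members were higher and 8 lower at RT, and 1 was higher and 10 lower in the cold. In either direction this was 13 of 78 members against 3033 of 16737 genes at RT, and 11 of 78 against 3802 of 16737 in the cold. DESeq2 called 0 lower at RT and 0 higher in the cold. Averaged over both temperatures, 1 was higher (1.28%, against 4.24%) and 3 lower (3.85%, against 3.55%).

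The member higher on HFD was Hspa12b, a divergent HSP70 of endothelial cells (chromosome 2, 131127280 to 131146321, plus strand). It was at 24.6, 24.01 and 32.2 CPM in NCD RT and 41.6, 42.2 and 46.6 CPM in HFD RT, and at 29.5, 40.9 and 38.6 CPM in NCD cold and 49.8, 50.1 and 46.8 CPM in HFD cold. All 6 HFD libraries exceeded all 6 NCD libraries. The log2 fold change was 0.69 ± 0.14 at RT (adjusted p = 0.0349), 0.43 ± 0.14 in the cold (adjusted p = 0.104) and 0.56 ± 0.10 over both (adjusted p = 0.00582). Of the 12 libraries left out in turn, the call at RT stayed only without NCD RT 3, NCD cold 1 or NCD cold 2, and that over both temperatures was lost only without NCD cold 1. Endothelial transcripts moved with it: the summed level of 8 endothelial markers was 602 to 728 CPM in NCD RT, 840 to 941 in NCD cold, 819 to 1088 in HFD RT and 1099 to 1235 in HFD cold, with the lowest group mean, 28.5 CPM, that of Emcn in NCD RT. Of the 8, Pecam1 was called higher on HFD at RT (0.72 ± 0.11, adjusted p = 0.00786), and all had positive log2 fold changes. The part of endothelial content in the Hspa12b value was not tested.

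The members lower on HFD, averaged over both temperatures, were Dnajc4, Dnajc12 and Cct6b. Dnajc4, a J protein of less defined function, was at 27.1, 22.4 and 25.1 CPM in NCD RT and 19.6, 18.1 and 18.4 CPM in HFD RT, and at 20.98, 21.1 and 26.9 CPM in NCD cold and 11.7, 17.1 and 16.2 CPM in HFD cold. Its log2 fold change was -0.61 ± 0.16 in the cold (adjusted p = 0.0453) and -0.51 ± 0.11 over both temperatures (adjusted p = 0.0127), and of the 12 libraries left out in turn the call in the cold stayed only without HFD cold 2. Dnajc12, a partner of the aromatic amino acid hydroxylases, was called only in averages. It fell on HFD over both temperatures (-0.65 ± 0.18, adjusted p = 0.0381) and in the cold over both diets (-0.71 ± 0.18, adjusted p = 0.0168). Of the 12 libraries left out in turn, the HFD call stayed only without NCD RT 3, NCD cold 3 or HFD cold 2. Dnajc12 went from 5.54, 3.95 and 3.36 CPM in NCD RT to 1.17, 1.94 and 1.84 CPM in HFD cold, with NCD cold at 2.92, 2.47 and 2.15 CPM and HFD RT at 2.64, 2.46 and 2.77 CPM in between. Cct6b, the testis subunit of TRiC, rested on few reads, 19, 17 and 34 counts in NCD RT and 6, 9 and 13 in HFD cold. Its log2 fold change on HFD over both temperatures was -1.11 ± 0.25 (adjusted p = 0.0154). It was not called at RT (adjusted p = 0.213) or in the cold (adjusted p = 0.0538). The call was lost in batch 1 alone, without the muscle-rich libraries and with no filter on low counts.

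Bag1, an exchange factor of HSP70, was lower in all 6 HFD libraries than in all 6 NCD libraries without passing the fold change threshold. It was at 211, 184 and 202 CPM in NCD RT and 163, 142 and 149 CPM in HFD RT, and at 194, 189.9 and 226 CPM in NCD cold and 128, 149 and 158 CPM in HFD cold. The log2 fold change over both temperatures was -0.44 ± 0.08 (adjusted p = 0.0057). For 4 members (Bag1, Dnajb6, Dnajb14 and Dnajc4) all HFD libraries lay below all NCD libraries (5.13%, against 2.44% of all genes), and for Hspa12b they lay above (1.28%, against 1.88%). Dnajb6 and Dnajb14 were named after their values were seen. Within temperatures, the HFD libraries lay below the NCD libraries for 14 members at RT (17.9%, against 12.9% of all genes) and 11 in the cold (14.1%, against 13.1%), and above them for 4 at each temperature (5.13%, against 13 and 12.1%).

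Dnajb12, a J protein of the ER membrane named after its values were seen, varied with batch rather than group. It was at 48.96, 53.4 and 31.7 CPM in NCD RT, 54.98, 57.4 and 31.9 CPM in NCD cold, 47.5, 47.2 and 34.1 CPM in HFD RT and 59.6, 61.1 and 35.9 CPM in HFD cold, with replicate 3, of batch 2, the lowest in every group.

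No member showed an interaction of diet and temperature, and neither did any of the 16737 genes (0% called). At an unadjusted p under 0.05 edgeR gave 2 of 78 members, Bag2 and Hspb1, against 1091 of 16737 genes, and DESeq2 called 0 members. The test across the 4 groups at an adjusted p under 0.001 called 1 member, Hspa4 (adjusted p = 0.00029), or 1.28% against 2.55% of all genes. DESeq2's likelihood ratio test called 17 members at the same threshold (22.1%, against 12.6% of all genes).

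**Figure D5:**
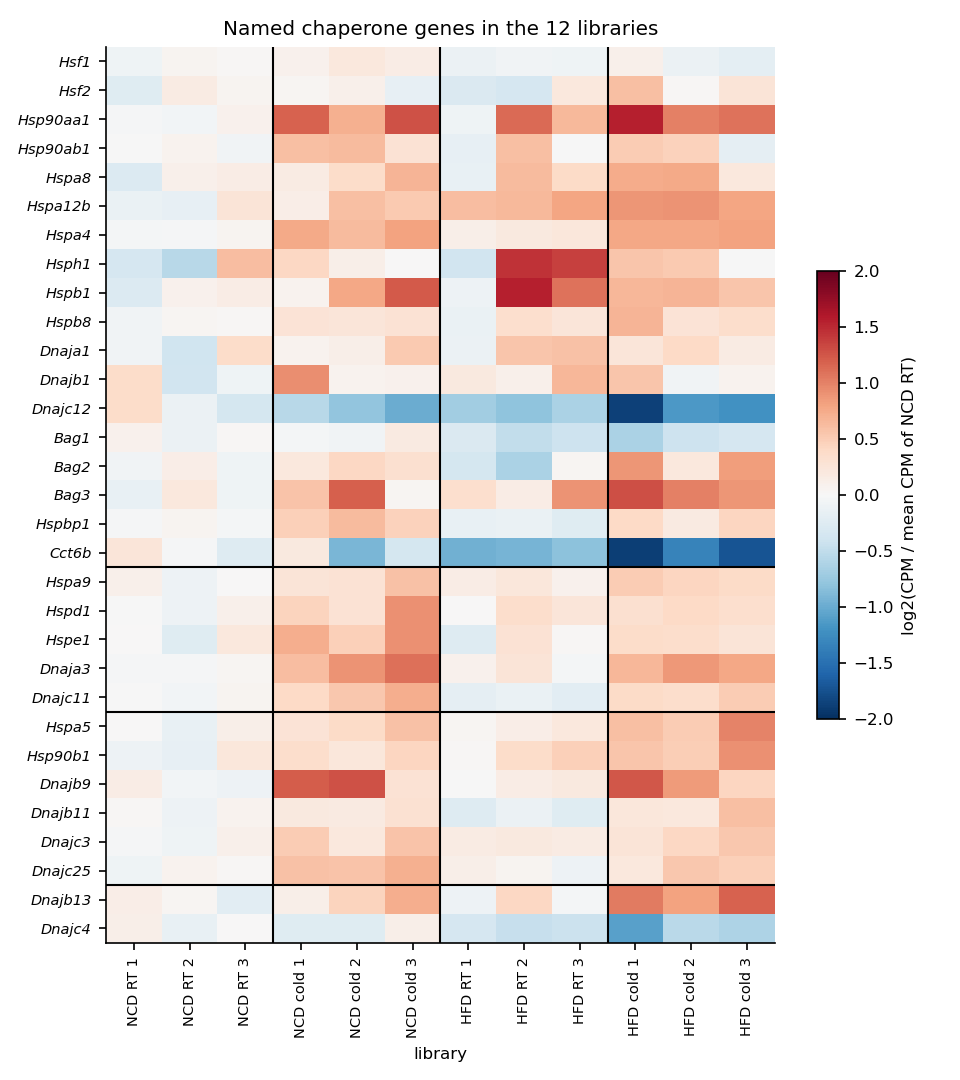
Log2 ratio of CPM in each library (columns) to the mean CPM of NCD RT for 31 named chaperone genes (rows), from cytosol and nucleus (top block) through mitochondria and ER to other genes (bottom block); red is higher and blue lower, and the colour scale runs from -2 to 2. Hspa4 and Dnaja3 are red in the 6 cold libraries, and Hsph1 and Hspb1 are darkest in HFD RT 2.

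Levels per exon length (CPM per kb of all annotated exons of a gene, joined) compare genes only roughly. The joined exons can be longer than the transcripts present, which lowers the value. By this measure Hspa8 and Hspa9 led, with means over the 12 libraries of 413 and 396. In NCD RT they were at 324 ± 49.4 and 332 ± 22.4 and did not differ beyond their spread (SD, n = 3). Hsp90ab1 (312) and Hspd1 (282) came next. In NCD RT they were at 259.8 ± 12.2 and 229 ± 16.99, and in the other 3 groups they differed by less than the sum of their SDs. Hsp90aa1 (178), Hspb1 (144), Bag1 (129.5), Hspe1 (102), Dnaja3 (97.5) and Hspb8 (86.5) completed the first 10. The highest ER member was Hspa5 (78.1), and 4 of the 10 were mitochondrial. Hsp90aa1 stood at 101 ± 5.14 in NCD RT, under its constitutive counterpart, and at 238 ± 50.95 in HFD cold, beside 319.5 ± 77.5 for Hsp90ab1. Hspa8, Hsp90ab1, Hspd1, Hspe1 and Cct genes have near-identical pseudogene copies, so how reads were split between copies leaves their levels uncertain.

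Dnajb13, a J protein of ciliary radial spokes, was called in the cold on HFD (0.91 ± 0.27, adjusted p = 0.0485) on few reads, 13, 23 and 31 counts in HFD RT and 41, 36 and 88 in HFD cold. Of the 12 libraries left out in turn, the call stayed only without NCD cold 1 or NCD cold 3. Its exons share 305 bases with Ucp2 on the other strand, which was at 22.1 ± 5.49 CPM in HFD RT and 38.1 ± 13.6 CPM in HFD cold.

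Outside the rule, of 18 other ER folding genes, 4 rose in the cold on NCD and 7 on HFD, with none lower by edgeR or DESeq2. These were 22.2 and 38.9%, against 3.72 and 5.39% of all genes called higher. The lectin chaperones Canx (0.84 ± 0.12 on NCD and 0.64 ± 0.12 on HFD) and Calr (0.69 ± 0.14 and 0.70 ± 0.14) rose on both diets, as did the ER stress cytokine Manf (0.62 ± 0.13 and 1.05 ± 0.13). Sdf2l1, a BiP cofactor, rose on HFD (1.52 ± 0.30, adjusted p = 0.0093).

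Of 15 HSP90 co-chaperones, 1 rose on NCD and 2 on HFD: Sugt1, which links HSP90 to ubiquitin ligases, on both (0.60 ± 0.10 and 0.69 ± 0.10), and the myosin chaperone Unc45a on HFD (0.70 ± 0.11). These were 6.67 and 13.3%, against 3.72 and 5.39% of all genes called higher. At an unadjusted p under 0.05, 8 were higher and 0 lower on NCD, and 3 higher and 1 lower on HFD. DESeq2 called 2 higher on each diet. Of 12 other mitochondrial chaperones and proteases, the HSP70 exchange factor Grpel2 rose on both diets (0.58 ± 0.13 and 0.50 ± 0.13), and the protease subunit Spg7 fell on HFD (-0.56 ± 0.13). Their medians were 0.16 on NCD and 0.04 on HFD, below the 0.56 and 0.29 of the 7 mitochondrial members, a difference given as a description.

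Markers of the cells of the tissue moved in part. In the cold, 0 of 8 macrophage and leukocyte genes were called on NCD (edgeR and DESeq2, median log2 fold change -0.17, 0 at an unadjusted p under 0.05) and 2 rose on HFD (median 0.16). Of 5 erythroid genes 0 were called on either diet by edgeR or DESeq2, with 0 at an unadjusted p under 0.05, and of 6 smooth muscle genes 0 rose on NCD (2 at an unadjusted p under 0.05, 2 by DESeq2) and 1 on HFD. Endothelial markers had median log2 fold changes of 0.36 on NCD, with 1 of 8 called higher, and 0.29 on HFD, with 0 called (4 higher at an unadjusted p under 0.05, 1 by DESeq2). The 18 skeletal muscle genes had medians of -0.98 and -1.77 and were below 0 for 18 and 17 genes, with 0 called by edgeR or DESeq2 and 0 at an unadjusted p under 0.05. Of 7 adipocyte genes, 2 rose on NCD and 2 fell on HFD, with summed levels of 12245 ± 1030.1 CPM in NCD RT, 16489 ± 1393 in NCD cold, 11762 ± 1356 in HFD RT and 12369.7 ± 1106 in HFD cold. Schwann cell genes had medians of -0.45 on NCD, with 0 of 5 called (1 lower at an unadjusted p under 0.05, 0 by DESeq2), and -0.34 on HFD, with 1 called lower. Apart from the fit with a skeletal muscle score as a term, the part of these cell types in the members' values was not tested.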

How the data were processed

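Per the labels and the study's methods, the authors depleted total RNA of rRNA, sequenced it, trimmed adapters (cutadapt) and estimated transcript abundance by salmon, with GENCODE M22 plus RNAcentral 5 on GRCm38 as reference, and added up each gene's transcripts. Deposited values are unnormalised estimated counts, given as whole numbers, and the authors tested them with DESeq2. Whether counting used strand is not given in the sources used here.

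Counts of 61210 genes were filtered (filterByExpr, minimum count 10), scaled by TMM and fitted with edgeR 4.0.16 (R 4.3.3, limma 3.58.1) as 4 group means, and p-values were Benjamini-Hochberg adjusted over 16737 genes. The script was tested on simulated data. DESeq2 1.42.0, other filters, a batch term, a replicate block, a skeletal muscle score as a term and leaving out libraries were alternatives. Members and lists were chosen with earlier results of these data known. Genes named are those called in any comparison and 22 core genes fixed by name, with exceptions marked. The labels do not say that replicate numbers pair libraries. Deviations from group means of same-numbered RT and cold libraries within a diet correlated at 0.155 to 0.456, and unlike-numbered ones at -0.289 to 0.134. The deviations within a group add up to 0 for each gene, so these 2 ranges are not independent of each other. Same-numbered libraries of the 2 diets correlated at -0.211 to 0.365. The highest values within the diets, 0.456 and 0.386, joined muscle-rich libraries, and the part of muscle content or batch was not tested. Exon lengths and coordinates come from GENCODE M21 and promoter windows from RefSeq (GRCm38.p6). Depth was 15136861 to 46740702 counts per library, and limits at 0 counts cover counting error only.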

Additional observations from a re-analysis of the deposited data

How the results depend on the processing

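Of 4991 comparisons of a single gene with an alternative, 4771 kept their side of the threshold, 190 no longer passed and 30 newly passed. Only genes called in the main fit could stop passing, and these were a minority of the comparisons. The share kept over all 4991 therefore does not measure how stable the calls were. The most losses in 1 setting were 24 in batch 1 alone and 23 without the 4 muscle-rich libraries. Among genes that passed in either fit, 0 changed sign. Sign changes of genes that passed in neither fit were not counted. The counts of members called moved as follows. In batch 1 alone they were 3 in the cold on NCD, 2 in the cold on HFD, 0 for HFD at RT, 0 for HFD in the cold, 8 for the mean cold effect (10.3%, against 10.2% of all genes), 1 for the mean HFD effect and 0 in the 4-group test. Without the 4 muscle-rich libraries, an alternative chosen after seeing the data, they were 1, 4, 0 and 0 in the first 4 comparisons and 0 in the 4-group test. Both settings have fewer samples. With only the 2 groups compared, cold on HFD gave 3, HFD at RT 0 and HFD in the cold 0. With no minimum fold change HFD in the cold gave 2 (2.56%, against 5.31% of all genes), the mean cold effect 23 (29.5%, against 21.1%), the mean HFD effect 9 (11.5%, against 13.5%) and the 4-group test at an adjusted p under 0.05 gave 25 (32.1%, against 24.3%). With no filter on low counts HFD in the cold gave 0, the mean HFD effect 2 and the 4-group test 3, and with a mean of at least 10 counts HFD in the cold gave 2 and the 4-group test 3. DESeq2 gave 2 for HFD in the cold and 17 in the 4-group test (22.1%, against 12.6% of all genes), and a batch term gave 2 in the latter. The causes were not tested.

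Dropping each library in turn gave 4 to 9 members in the cold on NCD, 5 to 9 in the cold on HFD, 0 to 1 for HFD at RT, 0 to 3 for HFD in the cold, 10 to 13 for the mean cold effect, 2 to 6 for the mean HFD effect and 0 to 2 in the 4-group test. The interaction gave 0 in each setting. With the replicate block within diet, cold called 9 members on NCD, 9 on HFD (7 higher, 2 lower) and 16 on average (13 higher, 3 lower), where Hspa5 fell just under the fold threshold, Dnajb13 was lost and Dnajc27 (0.61), Dnajc22 (0.60), Hspa4l (0.58), Dnajb5 (-0.61) and Hspb2 (-1.19) were gained. With 1 replicate block over all groups, HFD in the cold gave 0. The sum of Hspa1a and Hspa1b planned as an alternative was not run, as neither was analysed here. The 3 libraries per group and the lower depth of batch 1 limit what low genes such as Cct6b and Dnajb13 can show.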
